A study of Homo sapiens with 8 samples.

Results

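The genes described here are 10 components of the microvillus, the actin-filled finger on the free surface of an epithelial cell: USH1C, CDHR2, CDHR5, MYO7B and ANKS4B of the tip adhesion complex, and VIL1, PLS1, EPS8, EZR and ESPN of the actin core and its membrane anchor. They are 10 of the 58870 genes in the deposited table and were taken by symbol. The set was selected on measured values of this very contrast, because USH1C and CDHR2 were higher and ESPN lower in the ADRA2A cells. The members' values are therefore given as a description without p-values. Where calls on members from the fit of all genes are counted, they are not used as support. RNA was sequenced from 8 libraries of the CFPAC-1 cell line, which derives from a human pancreatic ductal adenocarcinoma. Of these, 4 were from cells carrying an empty vector and 4 from cells overexpressing a transgene for ADRA2A, the alpha-2A adrenergic receptor, which couples mainly to Gi. Both groups were grown for 72 h in serum-containing IMDM with penicillin and streptomycin and received no drug. The transgene's promoter, and whether the cells were a pool or a clone, are not given in the sources used here. The labels do not say whether the 4 libraries of a group came from separate cultures, so p-values measure only the spread between these samples, which may be technical.

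Microvilli of transporting epithelia hold bundles of parallel actin filaments. Villin (VIL1), plastin-1 or fimbrin (PLS1) and espin (ESPN) crosslink the filaments, EPS8 sits at the tips where filaments grow, and ezrin (EZR) ties the bundle to the overlying membrane. Neighbouring microvilli are joined at their tips by an adhesive link between the protocadherins CDHR2 and CDHR5. The cytoplasmic ends of these protocadherins are held by harmonin (USH1C) and ANKS4B, scaffold proteins that also bind the motor myosin-7B (MYO7B). The complex is best known from the brush border of intestine and kidney, and its inner-ear relatives hold together the stereocilia of hair cells.

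Library totals lay between 14427035 and 17528915 estimated counts. ADRA2A had 0 counts in every empty vector library and 112, 142, 154 and 172 in the ADRA2A libraries, which is at least 49.2-fold higher against a floor of 3 counts per empty vector library. The first principal component held 57.2% of the variance and separated the groups. All 5 epithelial markers (EPCAM, KRT8, KRT18, KRT19 and CDH1) passed the filter on low counts, and their sum ranged from 10947 to 11444 CPM (counts-per-million, TMM-scaled) in the empty vector libraries and from 10849 to 11920 CPM in the ADRA2A libraries. Of these 5, 2 were called higher and 2 lower, so the similar sums do not mean that the single markers were unchanged. The 5 fibroblast markers summed to 1.52 to 2.09 CPM and 0.830 to 1.66 CPM, and the 1 tested was not called. The 5 endothelial markers summed to 2.05 to 2.71 CPM and 2.64 to 3.35 CPM, with CLDN5 at 0. Of the 2 endothelial markers tested, 1 was called higher and 1 lower. The 5 immune markers summed to 89.9 to 96.3 CPM and 110 to 121 CPM, nearly all of it CD68. CD68 is a lysosomal protein also made outside the immune system, and CD3E was at 0. Of the 2 immune markers tested, 1 was called higher. The part of these differences in the results below was not tested. In bulk samples, fewer cells of a type and less RNA per cell cannot be told apart.

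Of the 10 members, 9 passed the filter and had a fitted value. With edgeR's quasi-likelihood test at an adjusted p of 0.05, 8 of the 9 were called, 7 higher and 1 (ESPN) lower in the ADRA2A cells. Over all 14785 genes tested, 42.7% were called, 21.6% higher and 21.1% lower. For 8 of the 9 members no empty vector library reached into the range of the ADRA2A libraries, against 39.2% of all genes tested. Since the set was selected on this contrast, nothing is read from these counts.

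**Figure D1:**
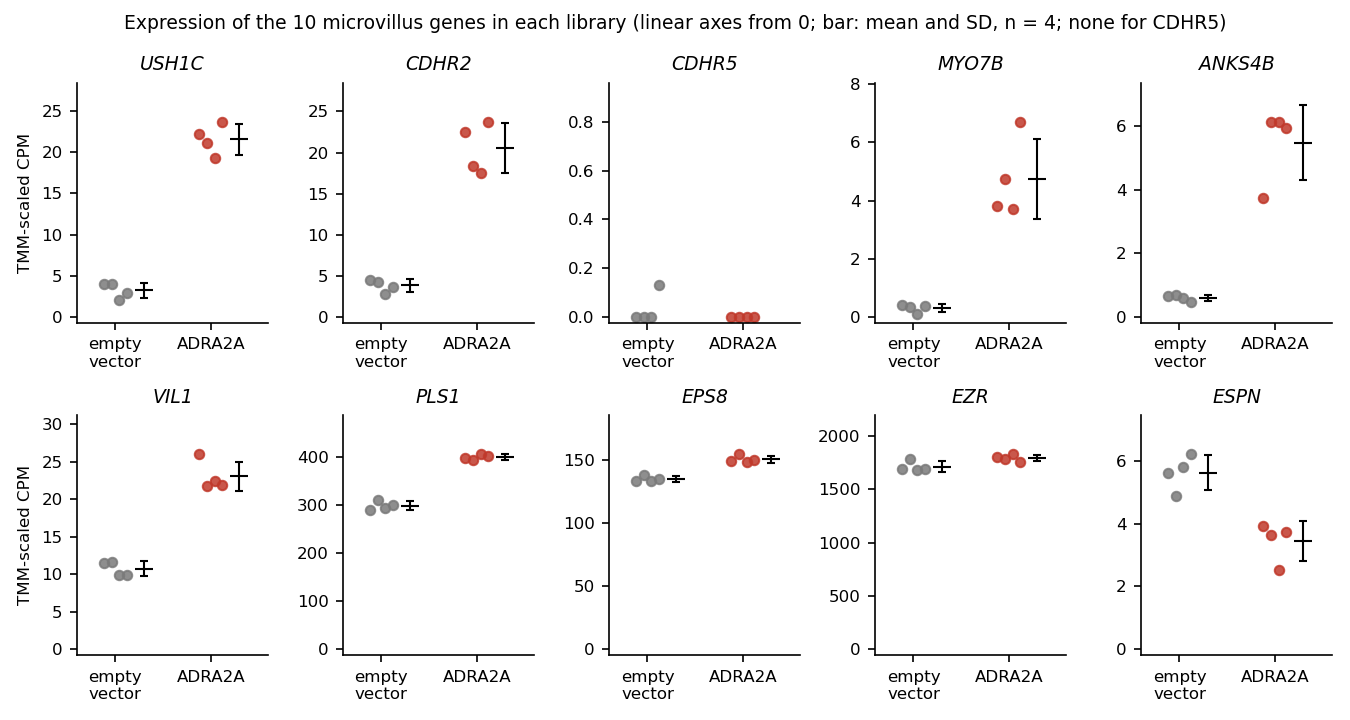
TMM-scaled CPM of each of the 10 genes in each library (vertical axes, linear and starting at 0), empty vector in grey and ADRA2A in red, with bars for the mean and SD (n = 4). USH1C, CDHR2, MYO7B and ANKS4B sit far apart between the groups, EZR overlaps, ESPN is the member that is lower in all 4 ADRA2A libraries, and CDHR5 has counts in 1 empty vector library only.

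USH1C encodes harmonin, the PDZ-domain scaffold at the base of the tip link. In the empty vector libraries, replicates 1 to 4 in order, it was at 4.04, 3.94, 2.03 and 2.88 CPM, and in the ADRA2A libraries at 22.2, 21.1, 19.2 and 23.7 CPM. Every ADRA2A library lay far above every empty vector library, and the lowest of the former was 4.76 times the highest of the latter. The means were 3.22 ± 0.950 and 21.5 ± 1.87 CPM (SD, n = 4), a log2 fold change of 2.74 ± 0.14 (SE) or 6.69-fold. These values rest on 35 to 69 counts per empty vector library and 319 to 374 per ADRA2A library.

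CDHR2, the larger of the protocadherins of the link, had nearly the same values as its scaffold. It was at 4.51, 4.28, 2.85 and 3.67 CPM with empty vector and at 22.6, 18.4, 17.5 and 23.7 CPM with ADRA2A. The means were 3.82 ± 0.742 and 20.5 ± 3.06 CPM (SD, n = 4), a log2 fold change of 2.42 ± 0.14 (SE) or 5.37-fold. USH1C and CDHR2 ranked the libraries identically within each group: replicate 3 was the lowest of both groups, replicate 1 the highest with empty vector and replicate 4 the highest with ADRA2A.

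MYO7B, the motor that carries the complex to the tips, was close to the limit of detection without the transgene. It had 7, 5, 2 and 6 counts in the empty vector libraries (0.410, 0.339, 0.116 and 0.393 CPM) and 55, 72, 65 and 106 in the ADRA2A libraries (3.81, 4.75, 3.72 and 6.70 CPM). Here too replicate 3 was lowest in both groups and ADRA2A replicate 4 highest. With ADRA2A, however, replicates 3 and 1 were nearly level at 3.72 and 3.81 CPM, and the empty vector order rests on 2 to 7 counts. The fitted log2 fold change was 3.90 ± 0.33 (SE), 14.9-fold, the largest of the 9 fitted members and the one with the widest error. Because 0 empty vector and 4 ADRA2A libraries exceeded the filter's limit of 0.645 CPM, MYO7B entered the fit through the group in which it is high.

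ANKS4B, the ankyrin-repeat scaffold that couples harmonin to myosin-7B, was likewise higher with ADRA2A, at a similar depth. It was at 0.644, 0.679, 0.581 and 0.458 CPM with empty vector (7 to 11 counts) and at 3.74, 6.14, 6.13 and 5.95 CPM with ADRA2A (54 to 107 counts). The groups did not overlap, though ADRA2A replicate 1 was well under the other 3. The lowest empty vector library was replicate 4, so ANKS4B did not share the library order of MYO7B. The means were 0.590 ± 0.0970 and 5.49 ± 1.17 CPM (SD, n = 4), a log2 fold change of 3.20 ± 0.25 (SE) or 9.20-fold. With 2 empty vector and 4 ADRA2A libraries over the limit of 0.645 CPM, ANKS4B too passed the filter through the ADRA2A group. ANKS4B overlaps the opposite-strand gene CRYM by 14977 bases. CRYM encodes mu-crystallin and rose from 0.820 ± 0.334 to 3.52 ± 0.743 CPM (SD, n = 4; log2 fold change 2.09 ± 0.28, edgeR adjusted p = 5.02e-06). The annotated exons of the pair share 0 bases, but the use of strand in the counting is not given in the sources used here, so intronic reads of the pair could not be told apart if they were counted.

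CDHR5, the mucin-like protocadherin that pairs with CDHR2 across the link, was close to absent. It had 2 counts in empty vector replicate 4 and 0 in the other 7 libraries, and was not tested. A count of 0 allows up to 3 counts, which is 0.171 to 0.208 CPM depending on the library (counting error only). A fold change was therefore not computed, and a difference under this limit could not be shown at this depth. Of the 5 adhesion genes, the 4 with a fitted value were thus higher in all 4 ADRA2A libraries, and the gene for the partner protocadherin was at or under the limit throughout.

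The starts of these 4 genes are shown as a description only, and a common cause of their higher levels was not tested. Each line gives the 250 bases before the annotated start, 5′ to 3′ on the gene's strand, from RefSeq on GRCh38.p14. USH1C, CDHR2 and MYO7B have 2 RefSeq windows each, and the printed one is at the start of the representative GENCODE transcript, which for CDHR2 lies 6831 bases inside the gene. In capitals are matches, on either strand, to letters used by transcription factors of the brush border programme: AATAAA or CATAAA for CDX factors, GTTAAT for HNF1 and CAAAGTCCA for HNF4. They are USH1C at chr11:17544417-17544666 (minus strand), CDHR2 at chr5:176549092-176549341 (plus), MYO7B at chr2:127535433-127535682 (plus) and ANKS4B at chr16:21233449-21233698 (plus).
USH1C: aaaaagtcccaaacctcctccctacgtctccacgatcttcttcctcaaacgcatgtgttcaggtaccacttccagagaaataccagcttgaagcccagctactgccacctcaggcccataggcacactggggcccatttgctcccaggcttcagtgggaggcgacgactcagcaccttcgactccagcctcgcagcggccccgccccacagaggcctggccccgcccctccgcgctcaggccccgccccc
CDHR2: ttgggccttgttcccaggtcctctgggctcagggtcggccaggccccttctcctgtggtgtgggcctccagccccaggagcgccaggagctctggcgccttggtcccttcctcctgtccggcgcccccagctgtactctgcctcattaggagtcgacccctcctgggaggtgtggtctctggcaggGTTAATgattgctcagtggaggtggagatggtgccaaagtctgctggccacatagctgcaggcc
MYO7B: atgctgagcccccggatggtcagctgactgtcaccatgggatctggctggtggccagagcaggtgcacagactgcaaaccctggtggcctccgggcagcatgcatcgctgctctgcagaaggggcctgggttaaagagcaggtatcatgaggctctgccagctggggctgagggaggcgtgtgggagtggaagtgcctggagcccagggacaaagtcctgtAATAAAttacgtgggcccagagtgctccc
ANKS4B: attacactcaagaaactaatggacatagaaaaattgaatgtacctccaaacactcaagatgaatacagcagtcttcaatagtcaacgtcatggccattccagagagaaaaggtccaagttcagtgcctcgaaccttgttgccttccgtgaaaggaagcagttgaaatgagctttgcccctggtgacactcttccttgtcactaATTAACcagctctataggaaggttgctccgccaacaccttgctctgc
The CDX letters occurred before MYO7B, the HNF1 letters before CDHR2 and ANKS4B, and none of the 3 motifs before USH1C. The other windows of USH1C, CDHR2 and MYO7B held none of the 3. RefSeq promoter windows of 300 bases, which run 50 bases past the start, were matched for 6 of the 10 members and gave 11 windows. The CDX letters were in 3 of the 11, against 24.3% of all 35116 windows. The HNF1 letters were in 2 of the 11, against 6.88% of all windows, and the HNF4 letters in 0 of the 11, against 0.384%. None of the 3 motifs overlaps another, and a match describes the letters only.

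Levels of different genes were compared per length, on a TPM scale made from the length of each gene's representative transcript. On that scale the 5 adhesion genes summed to 4.82 ± 1.15 with empty vector (3.31 to 5.87) and 31.2 ± 3.56 with ADRA2A (27.4 to 35.7; SD, n = 4). USH1C and CDHR2 stood at comparable levels in both groups: the ratio of USH1C to CDHR2 was 1.07 ± 0.124 with empty vector (0.920 to 1.19) and 1.36 ± 0.100 with ADRA2A (1.27 to 1.47). The other scaffold and the motor were scarcer. ANKS4B was at 0.146 ± 0.0460 and 0.193 ± 0.0491 of USH1C, with overlapping ranges (0.220 and 0.292 by the union of annotated exons), and MYO7B at 0.0447 ± 0.0155 and 0.102 ± 0.0228 of USH1C, without overlap. Among all genes tested, USH1C stood at the 13.9 percentile of level per length with empty vector and at the 46.8 percentile with ADRA2A, and CDHR2 at the 13.1 and 39.5 percentiles.

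In the actin core the picture was mixed: VIL1 was about doubled, PLS1 and EPS8 were modestly higher, EZR overlapped between the groups and ESPN was lower. VIL1 encodes villin, which bundles actin filaments and at high calcium severs them. It was at 11.5, 11.7, 9.88 and 9.88 CPM with empty vector and at 26.0, 21.8, 22.4 and 21.9 CPM with ADRA2A. The groups did not overlap, and ADRA2A replicate 1 stood above the other 3. The means were 10.7 ± 0.982 and 23.0 ± 1.99 CPM (SD, n = 4), a log2 fold change of 1.10 ± 0.09 (SE) or 2.15-fold. VIL1 shares 3045 of its 6891 annotated exon bases with USP37, a deubiquitinase gene on the other strand. USP37 was at 36.5 ± 3.66 and 36.8 ± 3.48 CPM (log2 fold change 0.01, edgeR adjusted p = 0.932). Because the use of strand in the counting is not given, reads of VIL1 and USP37 over these bases may not have been separated. The level of VIL1, its fold change and its ratios to other genes carry this limit. All 80 deposited member entries, those of VIL1 among them, were whole numbers, and whether reads were divided between the pair was not tested.

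PLS1, the plastin of microvilli, was abundant and tightly measured. It was at 290.5, 310.5, 294.4 and 301.4 CPM with empty vector and at 398.5, 393.4, 406.4 and 403.3 CPM with ADRA2A, with no overlap. Its log2 fold change was 0.42 ± 0.03 (SE), 1.34-fold. EPS8, the tip protein that caps and bundles filaments, was at 133.7, 137.8, 133.4 and 134.9 CPM with empty vector and at 149.6, 154.6, 148.1 and 149.6 CPM with ADRA2A. These groups did not overlap either, but the difference was only 1.12-fold (log2 0.16 ± 0.04, SE).

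EZR, the membrane linker, was the most abundant of the 10 genes. It was at 1695, 1790, 1682 and 1696 CPM with empty vector and at 1802, 1787, 1831 and 1757 CPM with ADRA2A. Empty vector replicate 2 reached into the range of the ADRA2A libraries, and the log2 fold change of 0.06 ± 0.03 (SE) did not pass the threshold. On the TPM scale EZR made up 82.3% of the summed level of the 10 genes with empty vector and 78.1% with ADRA2A, while the adhesion genes went from 0.307% to 1.80% of it. The summed level of the actin core without EZR was 272 ± 5.72 and 348 ± 5.86 (SD, n = 4), most of it PLS1.

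ESPN encodes espin, a bundler known for setting the length of stereocilia and microvilli. It was at 5.62, 4.89, 5.81 and 6.22 CPM with empty vector and at 3.94, 3.63, 2.52 and 3.73 CPM with ADRA2A, so that the highest ADRA2A library stayed under the lowest empty vector library. The means were 5.63 ± 0.557 and 3.46 ± 0.638 CPM (SD, n = 4), a log2 fold change of -0.71 ± 0.16 (SE) that leaves 61.0% of the empty vector level. The counts behind it were 72 to 100 and 44 to 59 per library, and the lowest empty vector library was 1.24 times the highest ADRA2A library. Per length, the ratio of ESPN to VIL1 went from 0.975 ± 0.175 to 0.275 ± 0.0482 and that of ESPN to PLS1 from 0.0197 ± 0.00225 to 0.00903 ± 0.00173 (SD, n = 4). By exon union, a length added after the data were seen, ESPN to VIL1 was 0.528 and 0.149, so whether the pair were level with empty vector depends on the length, while the ratio was lower with ADRA2A by either. The bundlers of the core thus stood in other proportions in the 2 groups. This is a description only, since ESPN was selected as lower on this contrast and the level of VIL1 carries the limit of its overlap with USP37.

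Other loci could share reads with ESPN. Its pseudogene ESPNP had 0 to 6 counts per library and was not tested. The longest aligned block of ESPN and ESPNP covers 1333 bases at 96.6% identity, so a division of reads between them is uncertain at these counts. The deposited entries of ESPN were whole numbers, and whether its reads were divided with another locus was not tested. ESPN also shares 383 exon bases with the opposite-strand gene TNFRSF25, a death receptor of the TNF receptor family, which was at 8.87 ± 1.64 and 9.06 ± 0.588 CPM (SD, n = 4; log2 fold change 0.03, edgeR adjusted p = 0.858).

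Members were set beside their paralogs as shares of each family's summed level per length. Among the plastins, PLS1 went from 40.1 ± 0.478% to 50.1 ± 0.962% (SD, n = 4). PLS3, the most abundant plastin with empty vector, held 58.0% and 49.5%, and LCP1, the plastin of leukocytes, 1.84% and 0.363%. LCP1 fell from 13.5 ± 1.18 to 2.86 ± 0.616 CPM (log2 fold change -2.23 ± 0.14, edgeR adjusted p = 9.21e-11) and PLS3 from 385 ± 5.33 to 352 ± 10.2 CPM (log2 -0.13 ± 0.03, edgeR adjusted p = 0.00308). Of the 3 plastins PLS1 was the one higher in the ADRA2A cells. How it stood to PLS3 there depends on the length used: with the union of annotated exons, PLS1 held 46.7% and PLS3 53.0%.

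VIL1 went from 11.2 ± 0.470% to 22.5 ± 2.30% of the villins (SD, n = 4), or from 21.2% to 38.0% with the union of annotated exons as the length. VILL, a villin-like gene that made up most of the rest, was at 36.3 ± 2.27 and 33.6 ± 3.40 CPM and did not pass the test (edgeR adjusted p = 0.23). Of the class VII myosins, MYO7B went from 4.51 ± 2.12% to 38.4 ± 7.46%, while MYO7A, the inner-ear member, was at 7.29 ± 1.18 and 8.11 ± 0.765 CPM (edgeR adjusted p = 0.354). ESPN went from 97.2 ± 1.65% to 84.0 ± 3.14% of the espins as ESPNL rose (log2 2.01 ± 0.42, edgeR adjusted p = 0.00068). ESPNL had only 2 to 5 counts per library with empty vector and 12 to 15 with ADRA2A, and passed the filter through the latter group alone.

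EZR and EPS8 held nearly the same share of their families in both groups, although other genes of these families moved. EZR held 80.5 ± 0.675% and 81.6 ± 0.0990% of the ezrin, radixin and moesin level (SD, n = 4), although RDX fell from 273 ± 7.27 to 213 ± 10.2 CPM (log2 fold change -0.36 ± 0.04, edgeR adjusted p = 2.69e-07) and MSN rose from 293 ± 3.29 to 334 ± 13.8 CPM (log2 0.19 ± 0.03, edgeR adjusted p = 0.000175). EPS8 held 31.1 ± 0.445% and 30.7 ± 0.937% of its family. Within it EPS8L3 rose 2.25-fold from 19.6 ± 2.09 CPM (log2 1.17 ± 0.07, edgeR adjusted p = 1.32e-10), doubling its share from 7.94% to 15.8%. The share of EPS8L2, the most abundant, went from 51.5 ± 1.05% to 43.6 ± 1.05%, though EPS8L2 itself did not pass the test (edgeR adjusted p = 0.198).

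**Figure D2:**
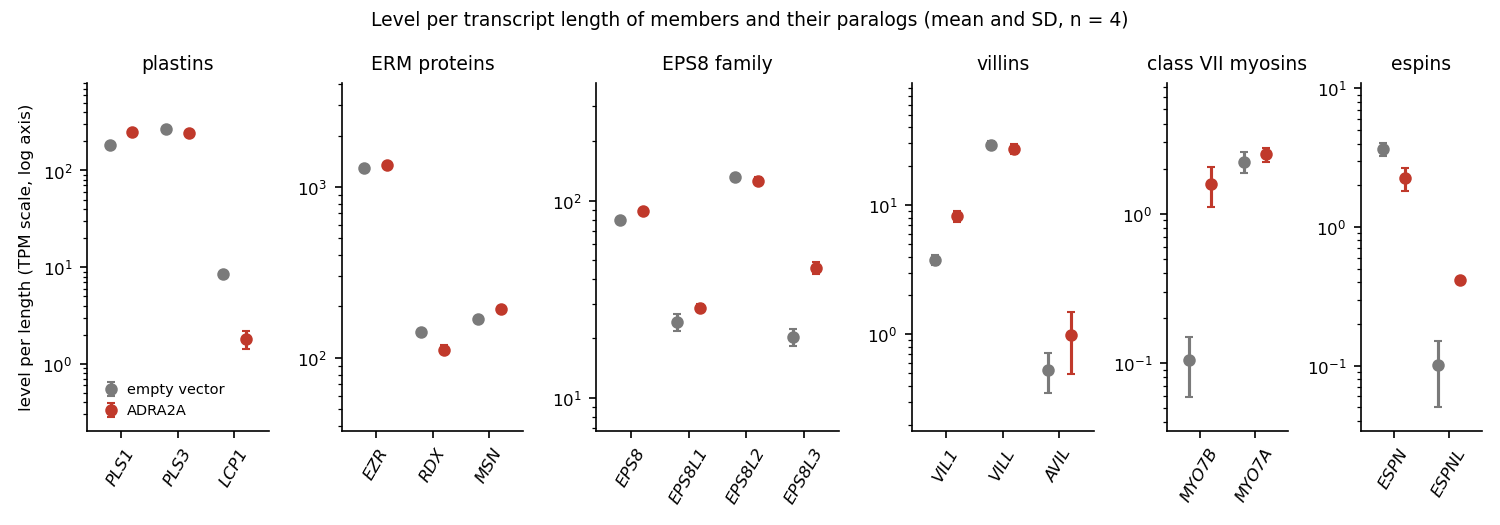
Level per transcript length (TPM scale, log axis) of members and their paralogs in 6 families, as mean and SD over the 4 libraries of each group, empty vector in grey and ADRA2A in red. The share of PLS1 goes from 40.1% to 50.1% of the plastins (36.9% to 46.7% by exon union) while LCP1 drops to 0.363% of the plastins, and MYO7B approaches MYO7A from far below.

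Other genes of the same structures were taken from 6 lists of 89 non-members, of which 71 passed the filter. Of the 71, 25 were called higher, 21 lower and 25 not called, which is 64.8% called beside 42.7% of all genes tested (21.6% higher, 21.1% lower). The median log2 fold change was 0.02 beside 0.00 over all genes tested. The lists were chosen with earlier results of these data known, and 2 of the 71 genes passed the filter through 1 group alone. These shares are therefore a description. The list nearest the adhesion complex, tip link and PDZ scaffold relatives, had 8 of 14 genes tested, with 4 higher, 2 lower and a median of 0.24. CALML4, a light chain of myosin-7B, rose from 9.08 ± 1.98 to 16.1 ± 2.12 CPM (SD, n = 4; log2 fold change 0.82 ± 0.13, edgeR adjusted p = 3.67e-05). SLC9A3R1 (NHERF1), a PDZ scaffold that binds ezrin, rose from 99.0 ± 4.39 to 124 ± 4.85 CPM (log2 0.32 ± 0.04, edgeR adjusted p = 5.67e-06), whereas its paralog SLC9A3R2 fell slightly (log2 -0.15 ± 0.04, edgeR adjusted p = 0.00565). PDZK1, another scaffold of this kind, rose from 1 to 10 counts per library to 21 to 28 (log2 2.03 ± 0.39, edgeR adjusted p = 0.000312), and it passed the filter through the ADRA2A group alone. CDHR3 was at 3.11 ± 0.812 and 2.04 ± 0.440 CPM with overlapping groups, and its call (edgeR adjusted p = 0.0438) was kept in 6 of 14 alternative analyses, the adjusted p reaching 0.166 without empty vector replicate 3.

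Actin bundling, capping and motor relatives had 24 of 25 genes tested, with 7 higher, 10 lower and a median log2 fold change of -0.11. The called share was 70.8%, beside 42.7% of all genes tested (21.6% higher, 21.1% lower). FSCN1 (fascin), the bundler of filopodia, fell from 169 ± 6.96 to 117 ± 2.55 CPM (SD, n = 4; log2 -0.53 ± 0.04, edgeR adjusted p = 1.69e-09). BAIAP2L2, a membrane-bending protein of microvilli and stereocilia, rose from 18.3 ± 1.32 to 26.1 ± 1.76 CPM (log2 0.51 ± 0.08, edgeR adjusted p = 1.57e-05). MYO1A, the brush border myosin that links core to membrane, had at most 4 counts in any library and was not tested.

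Membrane linkers and their kinases had 9 of 9 genes tested, with 3 higher, 3 lower and a median of -0.03. Here 66.7% were called, beside 42.7% of all genes tested (21.6% higher, 21.1% lower). The apical sialomucin PODXL and CLIC5, which associate with ezrin, rose by log2 0.51 ± 0.04 (edgeR adjusted p = 7.14e-10) and 0.76 ± 0.08 (edgeR adjusted p = 3.10e-07). NF2 (merlin), an ezrin relative, and STK26, a kinase of ezrin, fell, NF2 from 166 ± 5.02 to 116 ± 1.45 CPM (edgeR adjusted p = 9.67e-10) and STK26 from 40.5 ± 1.56 to 27.1 ± 1.81 CPM (edgeR adjusted p = 2.02e-07).

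Brush border enzymes and transporters, the cargo of mature microvilli, had 10 of 19 genes tested, with 2 higher, 2 lower and a median of 0.01, a called share (40.0%) near that of all genes. The peptide transporter SLC15A1 rose from 11.7 ± 0.436 to 18.7 ± 1.19 CPM (SD, n = 4; log2 0.68 ± 0.08, edgeR adjusted p = 1.25e-06), and the peptidase MME fell from 4.63 ± 0.657 to 1.58 ± 0.582 CPM (log2 -1.54 ± 0.23, edgeR adjusted p = 1.94e-05). Apical polarity and trafficking genes had 12 of 12 tested, with 2 higher, 3 lower (41.7% called, again near the share of all genes) and a median of 0.04, and none of the 12 moved by more than 0.31 on the log2 scale in either direction. PRKCZ, an atypical protein kinase C of the apical polarity complex, was the highest of them (log2 0.31 ± 0.06, edgeR adjusted p = 0.000661), and the apical syntaxin STX3 the lowest (log2 -0.25 ± 0.05, edgeR adjusted p = 0.000263).

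Transcription factors of the brush border programme had 8 of 10 genes tested, with 7 higher, 1 lower and a median log2 fold change of 0.60. Thus 100% of these were called, beside 42.7% of all genes tested (21.6% higher, 21.1% lower). CDX2, an intestinal homeobox factor, rose from 2.02 ± 0.610 to 5.67 ± 0.253 CPM (SD, n = 4; 2.83-fold, edgeR adjusted p = 2.95e-06). HNF4A and HNF4G, nuclear receptors that drive brush border genes, rose by log2 0.94 ± 0.07 (edgeR adjusted p = 1.77e-09) and 0.88 ± 0.06 (edgeR adjusted p = 1.24e-09). The epithelial factor ELF3 rose from 240 ± 12.7 to 381 ± 15.0 CPM (log2 0.67 ± 0.04, edgeR adjusted p = 7.73e-11). KLF4 was the 1 called lower, at log2 -0.21 ± 0.08 (edgeR adjusted p = 0.0484), and this call was kept in 8 of 15 alternatives, the adjusted p reaching 0.188 without ADRA2A replicate 4.

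**Figure D3:**
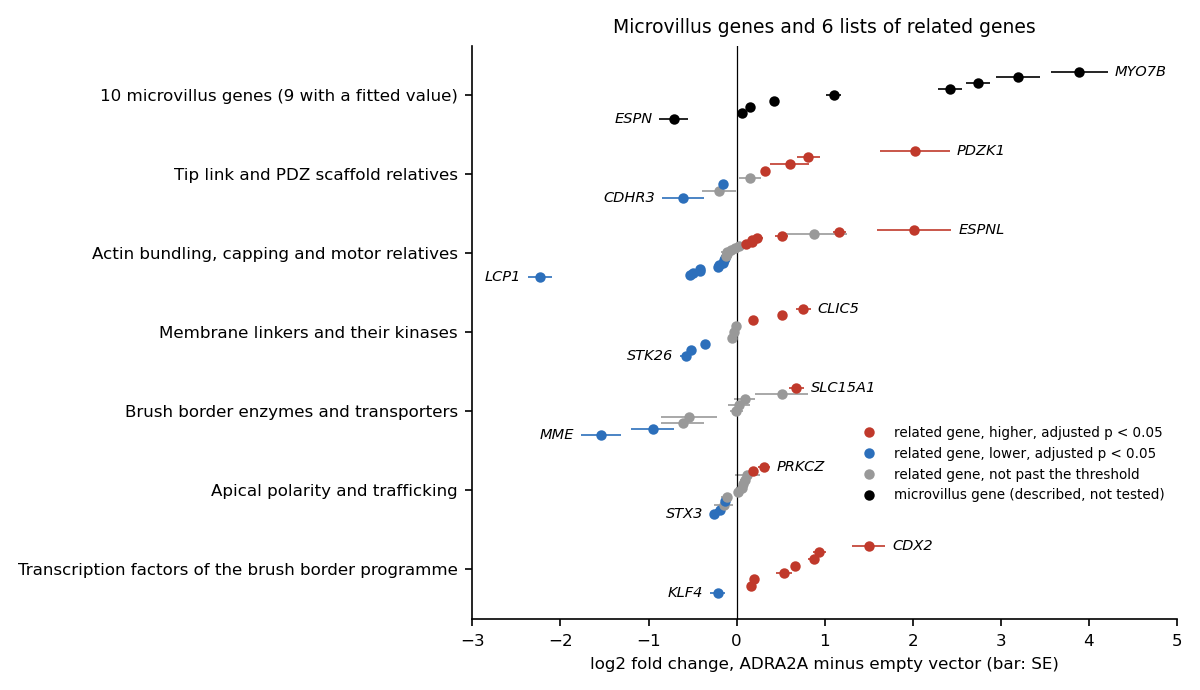
Fitted log2 fold change, ADRA2A minus empty vector, with its standard error, for the 9 members with a fitted value (black) and for the tested genes reported from the 6 related lists (red, higher; blue, lower; grey, past no threshold). The adhesion members lie beyond 2, the core members spread from -0.71 to 1.10, and the transcription factor list has 7 of 8 genes to the right of 0. The median over all genes tested is 0.00.

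The surroundings of each member in the genome were described from the 10 nearest tested genes on either side, with GENCODE 44 positions on GRCh38. USH1C (chr11:17493895-17544416) lay among neighbours whose median log2 fold change was -0.06, 9 of 20 above 0, and CDHR2 (chr5:176542511-176595974) among neighbours with a median of 0.13, 15 of 20 above 0. None of the 20 neighbours of USH1C, CDHR2, MYO7B (chr2:127535683-127637729) or ANKS4B (chr16:21233699-21253850) had a fold change beyond that of the member. USH1C and CDHR2 were selected as higher on this contrast, and MYO7B and ANKS4B passed the filter through the ADRA2A group. Their standing among neighbours is therefore a description from which nothing is read. The neighbour of USH1C with the highest value, 2.23, was SOX6, and that of ANKS4B was CRYM at 2.09.

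The core members stood out less from their surroundings. PLS1 (chr3:142596393-142713664) lay in a stretch of 7.76 Mb where 17 of 20 neighbours were above 0, with a median of 0.28, and 5 of them exceeded its own 0.42. For EPS8 (chr12:15620134-15882329) and EZR (chr6:158765741-158819368) 6 of 20 neighbours each went beyond the member, and for VIL1 (chr2:218419121-218453295) 2 did. ESPN (chr1:6424776-6461367) was lower, while 17 of its 20 neighbours were above 0, with a median of 0.12 beside 0.00 over all genes tested. Of the 20, 1 was lower than ESPN. Since ESPN was selected as lower on this contrast, nothing is read from its place among them.

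**Figure D4:**
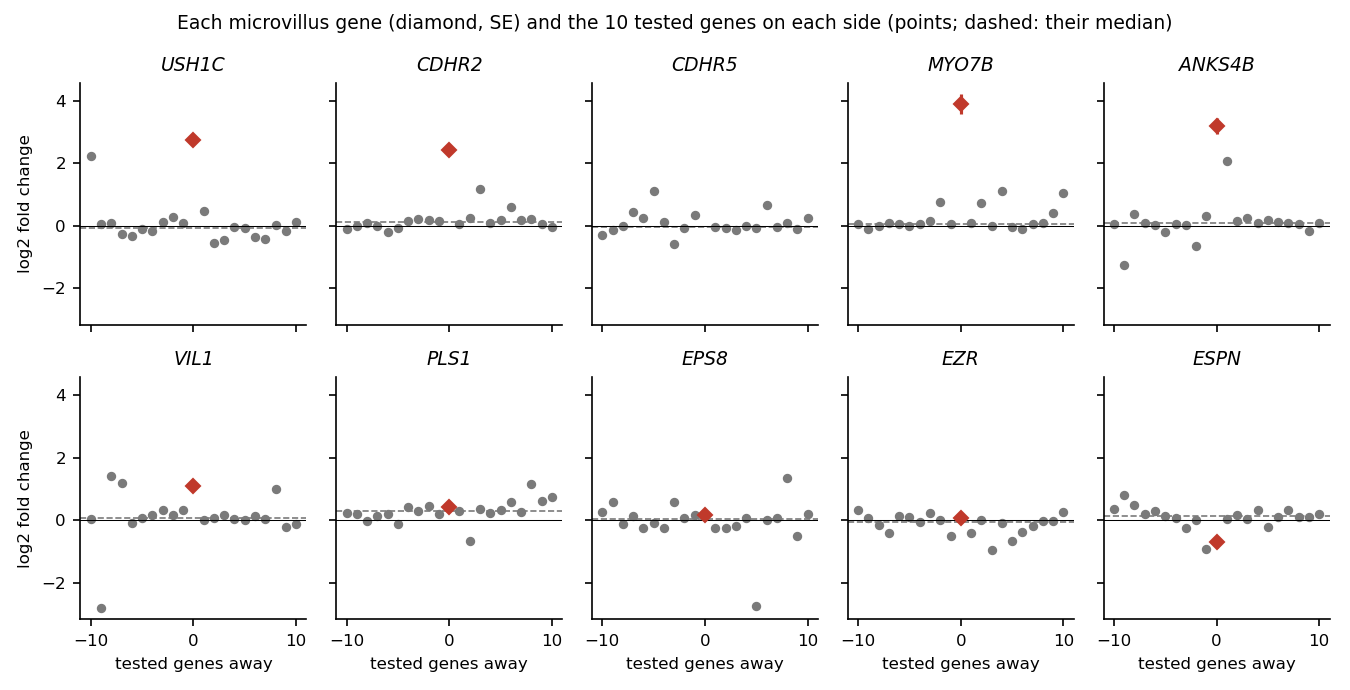
Fitted log2 fold change, ADRA2A minus empty vector, of each member and of the 10 nearest tested genes on either side of it, by their order along the chromosome. CDHR5 has no fitted value, so only its neighbours are shown. The adhesion members with a fitted value stand above all of their neighbours, PLS1 lies within the range of its neighbours, and ESPN is below all but 1 of its own. Since the members were selected on this contrast, these places are a description.

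The genes whose profile over the 8 libraries was most like that of USH1C, CDHR2 and ESPN were sought among 10154 tested genes of at least 10 CPM, by the root mean square difference between centred log2 CPM values. Nearest to USH1C were CP, which encodes ceruloplasmin, at 0.104, PDZK1IP1 at 0.139 and the cannabinoid receptor CNR1 at 0.200. CDHR2 was nearest to the complement gene CFB at 0.132, then PRR15L at 0.146 and CP at 0.153. CP rose from 63.3 ± 13.9 to 388 ± 28.2 CPM (SD, n = 4), and was the gene common to both rankings. Nearest to ESPN were FRMD6 at 0.135, TOX2 at 0.137 and the collagen-binding integrin subunit ITGA2 at 0.141, and ITGA2 fell from 153 ± 6.05 to 89.0 ± 5.09 CPM. This likeness is a description, since all 8 libraries share the contrast on which the members were selected.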

How the data were processed

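The authors deposited a table of estimated counts per gene for 8 libraries, unscaled. The submitters' processing notes name cutadapt, STAR, RSEM and DESeq2 and the build hg38, without versions or roles. The annotation release and the use of strand are not given in the sources used here. All 80 member entries were whole numbers. 0 columns were left unassigned.

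Counts were rounded, filtered with filterByExpr (14785 genes kept), scaled by TMM and tested with the quasi-likelihood test of edgeR 4.0.16 in R 4.3.3, with the group as the only term and Benjamini-Hochberg adjustment over all genes tested. The script was tested on simulated data. Coordinates and transcript lengths came from GENCODE 44 (58517 of 58870 identifiers matched, 99.4%), and promoter windows from RefSeq. The TPM scale used 1 representative transcript per gene. Alternatives were DESeq2 1.42.0, RLE and upper quartile factors, voom in limma 3.58.1, no filter, a mean of 50 counts, a replicate block, and each library left out in turn.

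The members, lists and tests were chosen with earlier results of these data known. Genes named were ADRA2A, the members, up to 2 called genes per list and direction of smallest p, listed paralogs and partners, genes overlapping a member, and the 3 nearest profiles of USH1C, CDHR2 and ESPN. ESPNL, SOX6 and the list markers CD68, CD3E and CLDN5 were named after their values were seen. 1 gene of the lists is counted but not reported by name here.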

Additional observations from a re-analysis of the deposited data

Results flagged for a closer look

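Within a group of 4 libraries, 1 library stood far from the other 3 by Dixon's test in 8 of 116 gene and group combinations, and chance flags about 1 in 20. Of the members, ANKS4B was low in ADRA2A replicate 1, at 3.74 CPM where the other 3 were at 5.95 to 6.14 CPM, and VIL1 was high in the same library, at 26.0 CPM beside 21.8 to 22.4 CPM. EZR was high in empty vector replicate 2, at 1790 CPM beside 1682 to 1696 CPM. CDHR5 was singled out by its 2 counts in empty vector replicate 4, or 0.131 CPM, with 0 in the other 3. Among related genes, SLC9A3R2 and FSCN1 were both high in empty vector replicate 3, at 132 CPM beside 121.5 to 122 CPM and at 179 CPM beside 164 to 166 CPM. MYO1A had 1 count in empty vector replicate 1 (0.0586 CPM) and 0 in the other 3. GPRIN1, which overlaps CDHR2 by 173 bases on the other strand, was at 15.8 CPM in ADRA2A replicate 2 beside 12.6 to 13.1 CPM.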

How the results depend on the processing

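Every fold change of the 9 fitted members kept its direction under each alternative that could be fitted. The ranges on the log2 scale were 2.56 to 2.88 for USH1C, 2.30 to 2.52 for CDHR2, 3.61 to 4.06 for MYO7B, 3.10 to 3.35 for ANKS4B, 1.04 to 1.14 for VIL1, 0.40 to 0.44 for PLS1, 0.14 to 0.17 for EPS8, 0.05 to 0.09 for EZR and -0.78 to -0.58 for ESPN. MYO7B and ANKS4B could not be fitted with the filter at a mean of 50 counts, which removes them. EZR passed the threshold in 2 of 15 alternatives, voom and without empty vector replicate 2. The number of genes called over all genes tested, 6314, became 5703 to 6042 when 1 library was left out and 5823 to 6550 otherwise. Related genes called higher, 25, became 21 to 25, and those called lower, 21, became 16 to 23. Of 698 values of the other named genes, 670 kept direction and call, 21 lost the call, 1 gained it and 6, all of uncalled genes that overlap a member, turned direction. USP37 turned to -0.0074 with upper quartile factors and ranged from -0.0475 to 0.0765 when 1 library was left out (negative without empty vector replicate 2 or ADRA2A replicate 1 or 2). GPRIN1 ranged from -0.0186 (without ADRA2A replicate 2) to 0.105 and TNFRSF25 from -0.0859 (without empty vector replicate 3) to 0.138. The cause was not tested. Among the calls lost were those of CDHR3 and KLF4, under DESeq2 and without any of 6 libraries each (CDHR3 also under voom), and of PARD6B without empty vector replicate 1 or ADRA2A replicate 1 or 3. AVIL gained a call without ADRA2A replicate 2. Replicate numbers did not pair the libraries (correlations of same-numbered deviations from -0.04 to 0.07), and a replicate block gave 6400 genes called over all genes tested, with 25 related genes higher and 22 lower. With the union of annotated exons in place of 1 transcript, EZR held 87.3% and 83.6% of the members' summed level, PLS1 9.45% and 11.6%, EPS8 2.64% and 2.70%, and VIL1 21.2% and 38.0% of the villins. Depth limits CDHR5, MYO7B and ANKS4B most, whose counts with empty vector were 0 to 11.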
